A study of Caenorhabditis elegans with 6 samples.

Results

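The insulin-like peptide genes of *Caenorhabditis elegans* were chosen by name: every gene of the count table whose WormBase symbol is *ins-* with a number, together with *daf-28*. This gave 39 of the 46661 genes in the table, among them *ins-31* (T10D4.4). The 3 *folr-1(syb4116)* libraries came from animals in which a premature stop codon interrupts the folate receptor gene *folr-1*, and the 3 N2 libraries came from the wild-type strain. The mutant strain was made by CRISPR/Cas9 genome editing and outcrossed with N2, and no other *folr-1* allele is among the libraries. Loss of *folr-1* and any other difference in strain background therefore cannot be told apart. RNA was taken from whole L4 larvae that had been synchronized by bleaching and raised at 20 °C on *E. coli* HT115 carrying the empty RNAi vector, so both strains share the diet, the vector and the stage. Each library is one biological replicate.

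Insulin-like peptides are small secreted hormones, made as precursors and folded by disulphide bonds. In *C. elegans* they act on the insulin receptor DAF-2, as agonists or as antagonists, and DAF-2 signals through PI3 kinase and AKT kinases to hold the FOXO transcription factor DAF-16 out of the nucleus. The pathway is known for its control of dauer arrest, growth, germline proliferation, learning and lifespan, and many of the peptides are made in a small number of sensory neurons or in the intestine. In RNA from whole animals, fewer cells that make a peptide and less RNA per cell cannot be told apart.

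The libraries held between 21646678 and 25946226 counts. Reads on *folr-1* itself numbered 14, 11 and 7 in *folr-1(syb4116)*, against 32, 37 and 59 in N2. Neuronal transcripts were well covered, since the summed level of 6 pan-neuronal markers was 250 to 259 CPM in *folr-1(syb4116)* and 253 to 262 CPM in N2. CPM are counts relative to the library size, which was scaled by edgeR's TMM method. Markers of single amphid neuron types differed in coverage. *daf-7*, a marker of the ASI neurons, had 188, 138 and 141 counts in *folr-1(syb4116)* and 140, 169 and 181 counts in N2, whereas *trx-1*, a marker of the ASJ neurons, had 0, 0 and 2 counts in *folr-1(syb4116)* and 1, 2 and 2 counts in N2.

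At L4 most insulin-like genes were weakly expressed. A gene was taken as detected when it had more than 3 counts in every library of at least one strain, since a true value of up to 3 counts is compatible with a count of 0. This floor amounts to 0.12 to 0.14 CPM, depending on the library. By this rule 25 of the 39 genes were detected, 20 of them in both strains. Only *ins-14* and *ins-32* passed in *folr-1(syb4116)* but not in N2, and only *ins-31*, *ins-11* and *ins-22* passed in N2 but not in *folr-1(syb4116)*. No count was found in any library for *ins-8*, *ins-13* and *ins-15*. *ins-13* overlaps *acdh-2* on the same strand in the WBcel235 annotation, so any reads from *ins-13* may not have been counted for it. The other 11 genes had some counts without passing the floor: *ins-2*, *ins-10*, *ins-16*, *ins-19*, *ins-20*, *ins-21*, *ins-23*, *ins-25*, *ins-34*, *ins-36* and *ins-39*. Of these, *ins-10*, *ins-34* and *ins-36* overlap a gene on the opposite strand in the WBcel235 annotation, so their few reads may belong to that gene. *ins-37*, which had far more reads, overlaps a gene on either strand.

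**Figure D1:**
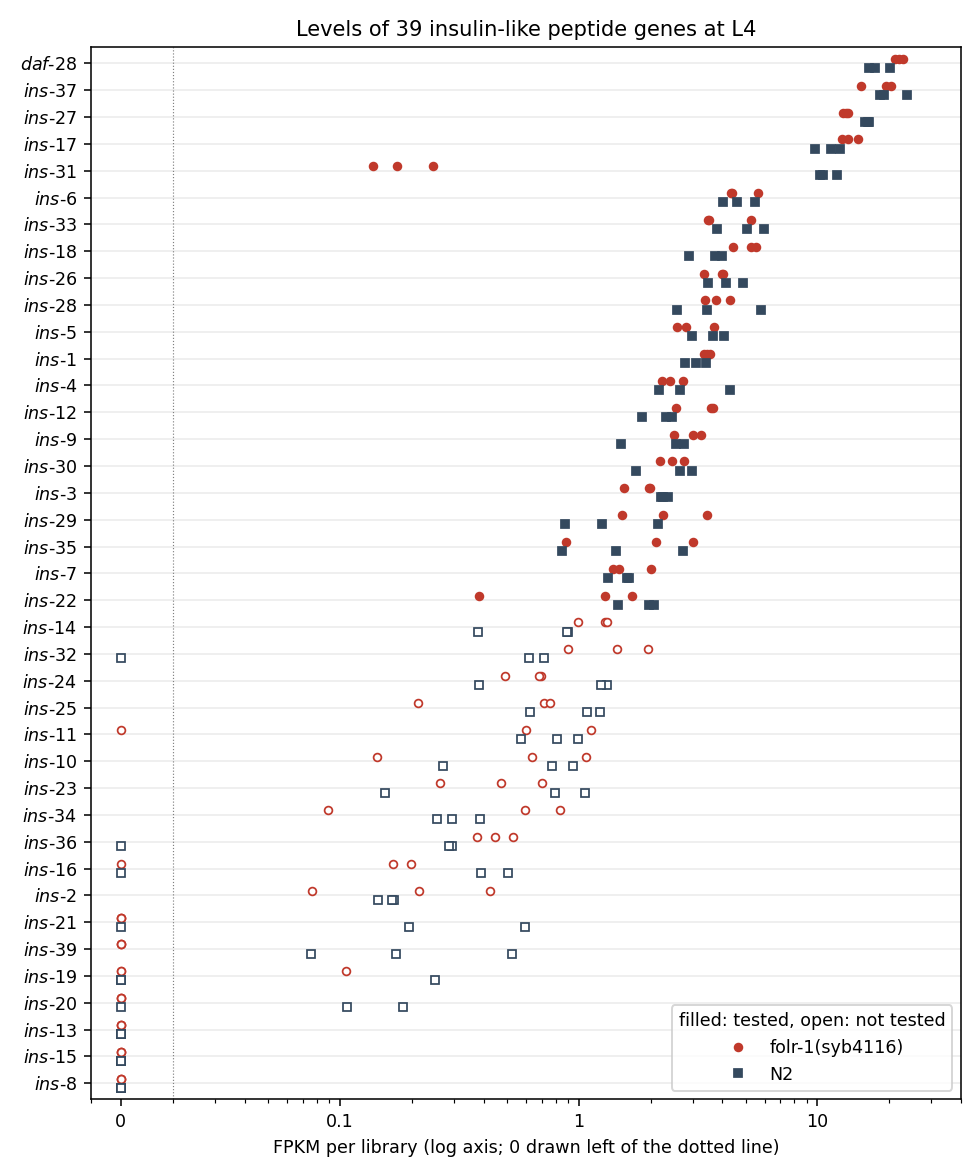
FPKM of the 39 insulin-like genes in each library on a logarithmic axis, ordered by the mean of all libraries, with *folr-1(syb4116)* as circles and N2 as squares; filled symbols mark the 21 genes that were tested, and values of 0 are drawn left of the dotted line. *ins-31* is the gene whose circles stand far from its squares, at 0.137 to 0.244 FPKM in *folr-1(syb4116)* and 10.2 to 12.1 FPKM in N2.

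Levels of different genes were compared as FPKM, which divide by gene length. By the mean over both strains the most abundant member was *daf-28*, an agonist of DAF-2 that is made in the ASI and ASJ neurons and keeps larvae out of the dauer stage. Its FPKM were 21.2, 21.9 and 22.8 in *folr-1(syb4116)* and 16.5, 17.5 and 20.2 in N2. Next came *ins-37*, with 20.3, 19.4 and 15.2 FPKM in *folr-1(syb4116)* and 23.7, 18.97 and 18.2 FPKM in N2. In *folr-1(syb4116)* *daf-28* ranked 1st, and all its values were above those of *ins-37*. In N2 *ins-37* ranked 1st, with a mean of 20.3 FPKM against 18.1 FPKM for *daf-28*, and their ranges overlapped.

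*ins-27* had 12.8, 13.5 and 13.2 FPKM in *folr-1(syb4116)* and 16.4, 15.8 and 16.5 FPKM in N2. *ins-17*, a peptide that favours dauer arrest when overexpressed, had 12.7, 13.5 and 14.7 FPKM in *folr-1(syb4116)* and 11.4, 12.4 and 9.75 FPKM in N2. These 2 genes overlapped in *folr-1(syb4116)* and were apart in N2. *ins-31* ranked 5th of the 39 genes in N2 and 31st in *folr-1(syb4116)*. All other members averaged 4.74 FPKM or less, and the 4 genes *daf-28*, *ins-37*, *ins-27* and *ins-17* together made up 52.6% of the summed mean FPKM of the family.

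The levels were not shared along the chromosome. Of the 39 genes, 25 lie in 7 clusters in which neighbouring members are at most 20 kb apart. The largest, on chromosome I, has 7 members from *ins-28* to *ins-26* within 25.4 kb, and their mean FPKM ranged from 0.768 for *ins-25* to 14.7 for *ins-27*. A cluster of 6 members on chromosome II, from *ins-2* to *ins-20* within 22.8 kb, holds *ins-4* and *ins-6*, which are agonists of DAF-2. Its members ranged from 0.0483 FPKM for *ins-20* to 4.74 FPKM for *ins-6*. In the clusters 16 of 25 genes were detected, and outside them 9 of 14 were.

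The strains could be compared for 21 members, which had enough counts for edgeR to test. Of these, 0 were called higher and 1, *ins-31*, was called lower in *folr-1(syb4116)* (edgeR's quasi-likelihood test, adjusted p under 0.05 over all 15432 tested genes). Over all tested genes 3.64% were called higher and 3.32% lower, 6.95% in all. Among the 6322 tested genes whose mean CPM lay within the range of the tested members, 3.23% were called in either direction. *ins-31* had enough counts through its N2 libraries alone. The median log2 fold change of the 21 members was 0.0097, with 11 above 0 and 10 below. That of all tested genes was 0.0028, with 50.7% above 0. An unadjusted p-value under 0.05 was reached by 5 members (3 higher and 2 lower), or 23.8%, where 20.2% of all tested genes reached it. The strains did not overlap in CPM for 7 members, or 33.3%, where 25.1% of all tested genes did not.

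**Figure D2:**
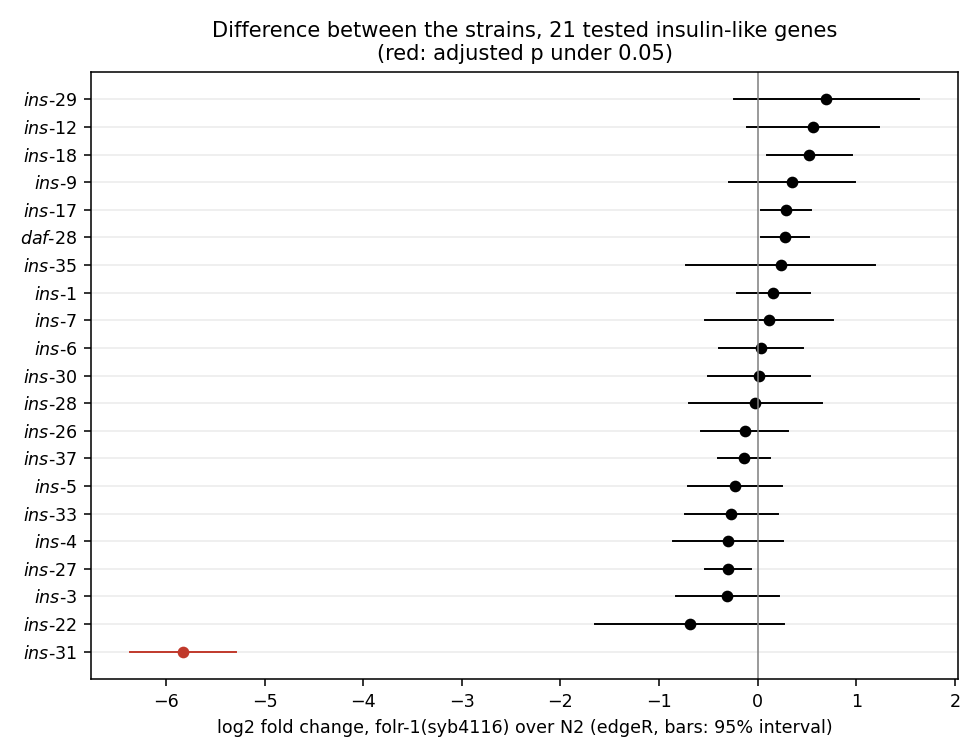
Log2 fold change of *folr-1(syb4116)* over N2 for the 21 tested insulin-like genes, from edgeR, with bars for the 95% interval; red marks an adjusted p under 0.05. *ins-31* lies at -5.82, with a bar that is too narrow for its few counts in *folr-1(syb4116)*. The other 20 genes lie between -0.69 and 0.70.

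*ins-31* was nearly lost from the mutant libraries. It had 3, 4 and 2 counts in *folr-1(syb4116)*, against 180, 155 and 182 counts in N2. The groups are far apart, and the spread within each strain is small beside the distance between them. This is 0.125 ± 0.0370 CPM in *folr-1(syb4116)* and 7.46 ± 0.679 CPM in N2 (SD, n = 3 each). On the log2 scale *ins-31* fell by 5.82 (edgeR, adjusted p = 4.94e-10). A standard error of 0.25 and a 95% interval from -6.36 to -5.29 were derived from the test statistic. As a ratio this interval is 0.0122 to 0.0256. Summed over each strain and scaled by library size, the 9 counts in *folr-1(syb4116)* were 0.0170 of the 517 counts in N2. The 95% interval of this summed ratio was 0.00772 to 0.0325 and covers counting error only. The interval from the test statistic lies inside it, so it is too narrow and understates the error. With 3 libraries against 3, a two-sided exact permutation test of one gene cannot go below p = 0.1.

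Among the genes called in either direction, *ins-31* ranked 22nd by the size of its log2 fold change. It belongs to the 0.816% of tested genes (126 genes) that were called and lower by more than 4-fold. In N2 its reads made up 11.4% to 12.1% of all reads on insulin-like genes, and in *folr-1(syb4116)* 0.168% to 0.290%. The summed level of the 39 genes was 55.3 to 58.1 CPM in *folr-1(syb4116)* and 61.0 to 68.0 CPM in N2. Without *ins-31* it was 55.2 to 57.9 CPM in *folr-1(syb4116)* and 54.02 to 59.8 CPM in N2, so that the strains overlapped.

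*ins-31* lies on chromosome II from 3127041 to 3127831 (WBcel235, forward strand), with 698 bp of exon in 3 exons, and no annotated gene overlaps it. Its nearest neighbour is another insulin-like gene, *ins-19*, which starts 599 bp away and is transcribed in the opposite direction. *ins-19* had 1, 0 and 0 counts in *folr-1(syb4116)* and 2, 0 and 0 counts in N2, so a difference was not detectable at this depth.

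Of the 32 annotated genes within 50 kb of *ins-31*, 9 were tested, and of these 0 were called higher and 3 lower. Among all tested genes 3.64% were called higher and 3.32% lower. T10D4.15, a gene named only by its clone that lies 18310 bp to the right, had 3, 6 and 3 counts in *folr-1(syb4116)* and 68, 75 and 67 counts in N2 (log2 fold change -4.13, adjusted p = 3.61e-07). Y25C1A.2, also named only by its clone and 13700 bp to the left, had 1, 5 and 5 counts in *folr-1(syb4116)* and 21, 15 and 24 counts in N2 (log2 fold change -2.44, adjusted p = 0.00394). The strains did not overlap for either gene, and both had enough counts to be tested through their N2 libraries alone.

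The third gene was the C-type lectin domain gene *clec-123*, with 57.6 ± 2.14 CPM in *folr-1(syb4116)* and 64.7 ± 1.99 CPM in N2 (SD, n = 3 each), a log2 fold change of -0.17 (edgeR, adjusted p = 0.0409). *clec-123* missed the threshold in 10 of 16 alternatives, and its adjusted p over all 16 lay between 0.0251 and 0.146. T10D4.15 and Y25C1A.2 passed the threshold in all 16. Genes closer to *ins-31* were not among the called ones. The chitinase-like gene *chil-24*, 1330 bp to the right, had a log2 fold change of 0.10 (adjusted p = 0.784), T10D4.6, 3857 bp to the left, had 0.03 (adjusted p = 0.882), and the chemoreceptor-class gene *srh-71*, 2141 bp to the left, had 0.58 (adjusted p = 0.501). The median over the 9 tested neighbours was 0.0060.

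**Figure D3:**
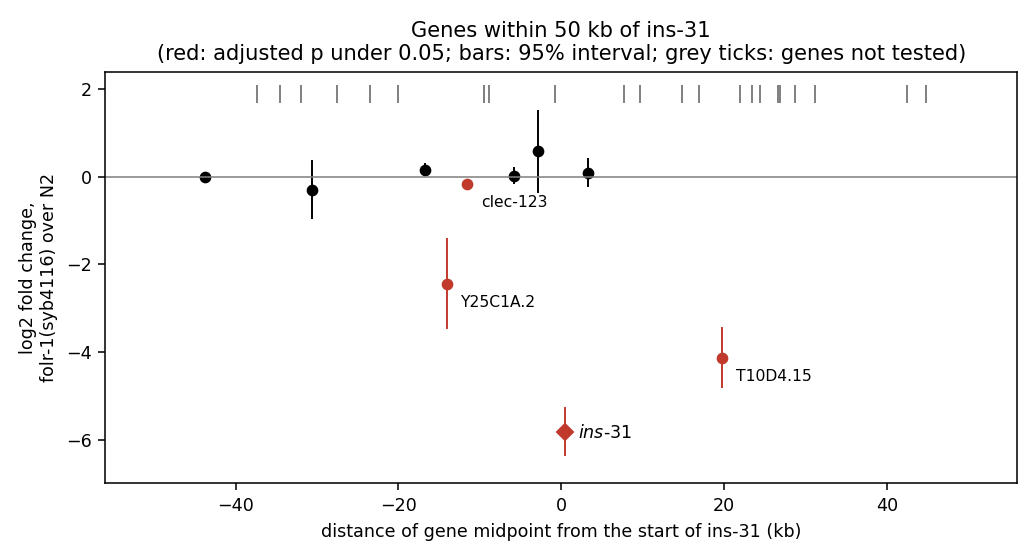
Log2 fold change of *folr-1(syb4116)* over N2 for the genes within 50 kb of *ins-31*, against the distance of each gene's midpoint from the start of *ins-31* in kb; bars are 95% intervals, red marks an adjusted p under 0.05, and grey ticks are genes that were not tested. *ins-31* (diamond), T10D4.15 and Y25C1A.2 lie far below 0, and the tested genes between them lie between -0.17 and 0.58. The bar of *ins-31* is too narrow for its few counts in *folr-1(syb4116)*, and those of other genes with few counts there may be.

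Some markers of other cell types were called lower, as *ins-31* was, where 3.32% of all tested genes were called lower. Of 7 male-associated genes 6 were tested, and 3 of them were lower (*mab-3*, *lov-1* and *pkd-2*), while 0 were higher. *lov-1* and *pkd-2* had enough counts to be tested through their N2 libraries alone. The log2 fold changes of the other 3 were -1.22 for *cil-7* (adjusted p = 0.0653), -0.05 for *klp-6* and 0.12 for *cwp-4*. *cwp-1* had 0 counts in every *folr-1(syb4116)* library and 7, 4 and 7 counts in N2. The summed level of the list was 3.19 to 3.91 CPM in *folr-1(syb4116)* and 6.96 to 8.54 CPM in N2. Of 6 sperm genes, *spe-9* was lower and 0 were higher, and the log2 fold changes of all 6 lay below 0. Their sums were 109 to 113 CPM in *folr-1(syb4116)* and 119 to 121 CPM in N2. Of 4 body wall muscle genes, 1 was lower, the myosin gene *unc-54*, with 4597 CPM in *folr-1(syb4116)* and 5606 CPM in N2. It made up most of the sum of that list, which was 5537 to 6279 CPM in *folr-1(syb4116)* and 6969 to 7077 CPM in N2. The other 3 had log2 fold changes of -0.10 (*myo-3*), -0.08 (*unc-27*) and 0.18 (*hlh-1*) and were not called.

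In the opposite direction, *ifb-2* and *act-5* were higher among 5 intestinal genes. Of all tested genes 3.64% were called higher and 6.95% in either direction. The log2 fold changes of all 5 intestinal genes lay above 0, and they summed to 1921 to 2026 CPM in *folr-1(syb4116)* and 1759 to 1884 CPM in N2. Of 6 pan-neuronal, 4 epidermal, 4 germline and 5 uterine, vulval and spermathecal genes, 0 were called in either direction. The same holds for the 2 tested of 6 amphid neuron genes, whose list summed to 10.8 to 12.63 CPM in *folr-1(syb4116)* and 13.01 to 14.4 CPM in N2. Of the marker genes called, *unc-54* and *mab-3* passed the threshold in all 16 alternatives and *lov-1* and *pkd-2* in all but the 2 on FPKM, while *ifb-2*, *act-5* and *spe-9* missed it in 6, 8 and 10 of them. The part of these cell types in the result for *ins-31* was not tested.

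**Figure D4:**
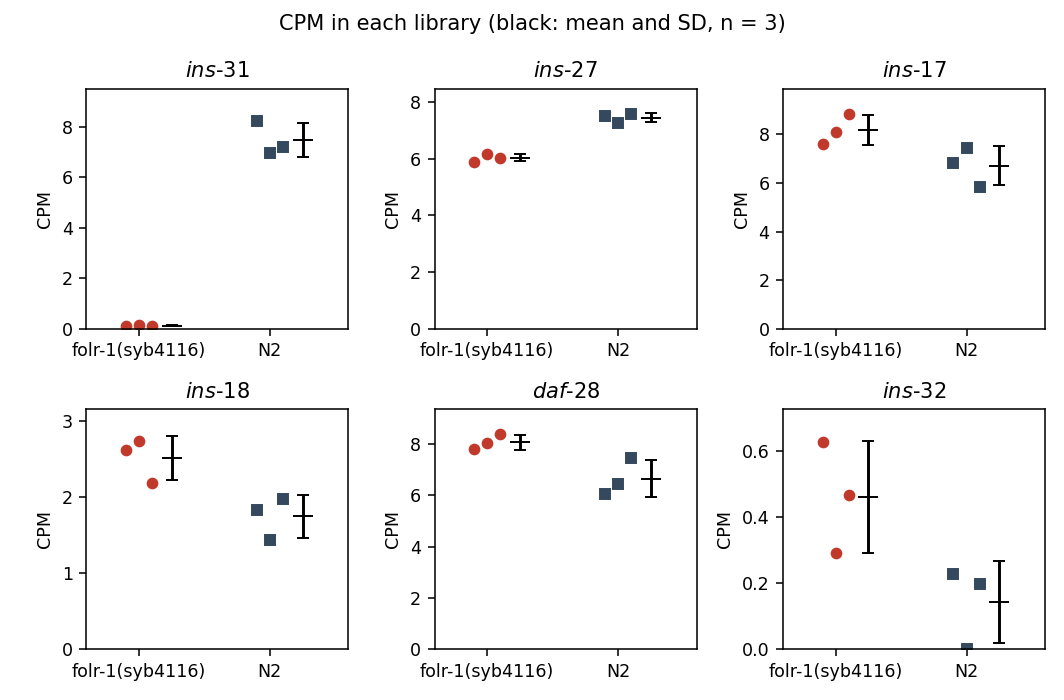
CPM of 6 insulin-like genes in each library, with *folr-1(syb4116)* left of N2 and the mean and SD (n = 3) in black; each axis starts at 0. *ins-31* is close to 0 in *folr-1(syb4116)*, while *ins-27*, *ins-17*, *ins-18* and *daf-28* differ between the strains by less than 1.5-fold, and *ins-32* had too few counts to be tested.

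Among the agonists of DAF-2, *daf-28* had 199, 194 and 180 counts in *folr-1(syb4116)* and 132, 143 and 188 counts in N2. Scaled, this was 8.06 ± 0.295 CPM in *folr-1(syb4116)* and 6.63 ± 0.720 CPM in N2 (SD, n = 3 each), and the strains did not overlap. The log2 fold change was 0.28 with a 95% interval of 0.03 to 0.52, and it did not pass the threshold (edgeR, unadjusted p = 0.0283, adjusted p = 0.179).

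*ins-6*, which promotes exit from dauer, had 53, 64 and 44 counts in *folr-1(syb4116)* and 56, 42 and 55 counts in N2. *ins-4*, an agonist that overlaps in function with *ins-6* and *daf-28*, had 33, 38 and 30 counts in *folr-1(syb4116)* and 54, 28 and 39 counts in N2. The strains overlapped for both genes. The 95% interval of the log2 fold change was -0.39 to 0.46 for *ins-6* and -0.86 to 0.25 for *ins-4*, so that 2-fold changes lie outside it for both.

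*ins-3*, which takes part in germline proliferation, had 30, 22 and 25 counts in *folr-1(syb4116)* and 29, 31 and 33 counts in N2. In CPM its libraries did not overlap between the strains (log2 fold change -0.31, adjusted p = 0.539). *ins-33*, which is expressed in the epidermis and also acts on germline proliferation, had 70, 44 and 39 counts in *folr-1(syb4116)* and 68, 44 and 67 counts in N2 (log2 fold change -0.27, adjusted p = 0.552), and its strains overlapped.

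*ins-7*, an intestinal agonist repressed by DAF-16, had 26, 17 and 16 counts in *folr-1(syb4116)* and 18, 18 and 17 counts in N2. *ins-35*, also intestinal, had 29, 8 and 17 counts in *folr-1(syb4116)* and 7, 12 and 26 counts in N2, and it was the most variable member within the strains. Its spread was 5.06 times that of counting noise, where the median over the 21 tested members was 1.20. With adjusted p-values of 0.887 for *ins-7* and 0.835 for *ins-35*, no difference was found between the strains beyond this spread. *ins-11*, which is made in the intestine during infection and shapes the aversive response to pathogens, was not tested, with 8, 4 and 0 counts in *folr-1(syb4116)* and 6, 5 and 4 counts in N2.

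Of the peptides that favour dauer arrest, *ins-18* had 67, 66 and 47 counts in *folr-1(syb4116)* and 40, 32 and 50 counts in N2. This is 2.51 ± 0.290 CPM in *folr-1(syb4116)* and 1.75 ± 0.279 CPM in N2 (SD, n = 3 each), without overlap. The log2 fold change was 0.52 with a 95% interval of 0.09 to 0.95 (edgeR, unadjusted p = 0.0206, adjusted p = 0.149).

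*ins-17* had 195, 195 and 190 counts in *folr-1(syb4116)* and 149, 166 and 148 counts in N2, also without overlap in CPM. Its log2 fold change was 0.29 with a 95% interval of 0.03 to 0.54 (edgeR, unadjusted p = 0.0293, adjusted p = 0.182). *ins-1*, which can antagonize DAF-2 and takes part in learning, had 72, 64 and 59 counts in *folr-1(syb4116)* and 59, 55 and 56 counts in N2. Its strains overlapped in CPM (log2 fold change 0.16, 95% interval -0.21 to 0.53, edgeR adjusted p = 0.677). None of these 3 genes was called, and the interval of *ins-1* included 0.

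*ins-27*, whose role is less well known, had 151, 149 and 130 counts in *folr-1(syb4116)* and 164, 162 and 192 counts in N2. After scaling, these became 6.04 ± 0.136 CPM in *folr-1(syb4116)* and 7.46 ± 0.164 CPM in N2 (SD, n = 3 each), without overlap. The log2 fold change was -0.30 with a 95% interval of -0.54 to -0.07 (edgeR, unadjusted p = 0.0134, adjusted p = 0.117). Its spread within the strains was 0.0796 times that of counting noise, less than that of any other tested member. With limma on log2(FPKM + 0.1) or log2(FPKM + 1), it passed the threshold (adjusted p = 0.0228 and 0.0246), and with the other alternatives its adjusted p lay between 0.116 and 0.406.

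The remaining 9 tested members were *ins-5*, *ins-9*, *ins-12*, *ins-22*, *ins-26*, *ins-28*, *ins-29*, *ins-30* and *ins-37*. Their log2 fold changes lay between -0.69 for *ins-22* and 0.70 for *ins-29*. *ins-12* had 25, 24 and 15 counts in *folr-1(syb4116)* and 11, 15 and 16 counts in N2. The strains overlapped in counts and not in CPM, where the lowest *folr-1(syb4116)* library had 0.697 and the highest N2 library 0.674 (adjusted p = 0.343). *ins-37*, the 2nd most abundant member, had 267, 240 and 168 counts in *folr-1(syb4116)* and 266, 217 and 237 counts in N2 (log2 fold change -0.14, 95% interval -0.41 to 0.13).

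The tested members were measured with less precision than most genes. They had a median of 40.7 counts per library, against 338 over all tested genes. Their standard errors, *ins-31* left aside, ran between 0.11 and 0.45 on the log2 scale, with a median of 0.24 where the median over all tested genes was 0.09. The spread within the strains was more than 2 times that of counting noise for 6 of the 21, among them *ins-37* (4.87), one of the most deeply counted. The 95% intervals of the 20 members that were not called reached from -1.65 to 1.63, and 16 of them included 0.

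Beneath the filter, *ins-32* and *ins-39* were singled out after their values were seen. *ins-32* had 16, 7 and 10 counts in *folr-1(syb4116)* and 5, 0 and 5 counts in N2. Over each strain and scaled, this is a ratio of 3.22 with a 95% interval of 1.55 to 7.32, for counting error only. With no filter on counts, the log2 fold change of *ins-32* in edgeR was 1.65 (adjusted p = 0.0852). DESeq2 gave 1.69 (adjusted p = 0.374). In the edgeR comparisons with a library left out that tested *ins-32*, its adjusted p lay between 0.133 and 0.357. *ins-39* had 0, 0 and 0 counts in *folr-1(syb4116)* and 6, 2 and 1 counts in N2. Of its 9 counts 6 were in one N2 library, so no fold is given. With no filter edgeR gave *ins-39* an adjusted p of 0.0987, and DESeq2 gave 0.293.

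Few of the genes through which these peptides act, or that process them, passed the threshold, where 6.95% of all tested genes did. Of 11 genes from the receptor to DAF-16, 1 was higher and 0 were lower, with a median log2 fold change of -0.060. The one called was *sgk-1*, a kinase downstream of DAF-2, with 55.3 CPM in *folr-1(syb4116)* and 47.3 CPM in N2 (log2 fold change 0.22, adjusted p = 0.0251), and it missed the threshold in 6 of 16 alternatives (adjusted p from 0.00109 to 0.111), among them the ones without *folr-1(syb4116)* replicate 2 or 3 and without N2 replicate 1 or 2. The log2 fold change was -0.18 for *daf-2* (adjusted p = 0.0613), -0.14 for *daf-18* (adjusted p = 0.0728) and 0.09 for *daf-16* (adjusted p = 0.227). Together with *sgk-1*, these were the genes of the list with an unadjusted p under 0.05 in edgeR, where 20.2% of all tested genes had one. Of 10 genes of propeptide processing and dense-core vesicle release, 0 were called in either direction with edgeR, DESeq2 or limma, and 1 was called lower without N2 replicate 3. With all libraries 3 of the 10 had an unadjusted p under 0.05, where 20.2% of all tested genes had one, and all 3 lay below 0: *bli-4* (-0.12), *ida-1* (-0.14) and *unc-31* (-0.20). The log2 fold changes of all 10 lay between -0.20 and 0.09, with -0.05 for the proprotein convertase gene *egl-3* and 0.05 for the carboxypeptidase gene *egl-21*.

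Of 15 genes known to respond to DAF-16, 11 were tested, 1 was higher and 3 were lower, where 6.95% of all tested genes were called. The median log2 fold change was -0.20. The list mixes genes that DAF-16 activates with genes whose transcripts fall in *daf-2* mutants, so this median does not measure the activity of DAF-16. The catalase gene *ctl-2* was higher, at 68.7 CPM in *folr-1(syb4116)* and 61.6 CPM in N2 (log2 fold change 0.16, adjusted p = 0.0400). The lower ones were *dod-17* (log2 fold change -0.32, adjusted p = 0.00193), *dod-19* (-0.20, adjusted p = 0.0295) and *dod-24* (-0.44, adjusted p = 0.00371), which were named for acting downstream of DAF-16 and whose transcripts fall in *daf-2* mutants. *ctl-2* missed the threshold in 11 of 16 alternatives (adjusted p from 0.0234 to 0.133) and *dod-19* in 7 (adjusted p from 5.67e-05 to 0.130). Both missed it with any one library left out other than N2 replicate 1. *dod-17* and *dod-24* passed it in all 16. *sod-3*, a superoxide dismutase gene that DAF-16 activates, had a log2 fold change of -0.32 (adjusted p = 0.595). The other tested genes were not called. Their log2 fold changes were 0.07 for *ctl-1*, 0.31 for *ftn-1*, -0.04 for *lys-7*, -0.47 for *dod-20*, -0.26 for *dod-22* and -0.06 for *dod-23*.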

How the data were processed

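RNA from whole L4 larvae was sequenced with 3 biological replicates of each strain. Per the labels and the methods of the study, the authors trimmed reads with fastp, aligned them with HISAT2 to WBcel235 and deposited raw counts per gene from featureCounts, with no normalization. They also deposited FPKM, made from the counts with gene length and a scaled library size. The versions and the strand setting are not given in the sources used here, and both directional and non-directional kits are described, so overlapping genes could share reads.

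Gene names and positions came from the WBcel235 annotation (Ensembl), in which 46180 of 46661 genes were matched. Counts were filtered with filterByExpr, scaled with TMM and compared with edgeR 4.0.16 (glmQLFit, glmQLFTest) in R 4.3.3, with strain as the only term and Benjamini-Hochberg adjustment over 15432 genes. FPKM served to compare levels between genes. Any 2 libraries of a strain were further apart than sampling of reads alone would give (3.17 to 8.17 for chi-square over its degrees of freedom), so each was used as a replicate. The procedure was tested on simulated data, in which the changed genes were more deeply counted than most of the members. That test does not show how well changes are found at the depth of the members.

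The members and lists were chosen with earlier results of these data known. Values in every library are given for members that were called, had an unadjusted p under 0.05, were among the 6 with the highest FPKM or have a well-known role, and the rest are given by ranges and counts. Alternatives were DESeq2 1.42.0, limma 3.58.1 on voom weights and on log2(FPKM + 1) or log2(FPKM + 0.1), other scaling, filters and thresholds, a replicate block, a correction for gene length (lowess, span 0.3) and each library left out. Intervals from counts and the floor of 3 counts cover counting error only.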

Additional observations from a re-analysis of the deposited data

How the results depend on the processing

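*ins-31* was called lower under every alternative computed, with an adjusted p of at most 7.53e-06. Leaving out single libraries gave log2 fold changes from -6.07 to -5.68. On log2(FPKM + 1), a scale that compresses low values, limma gave -3.34. The number of members called lower was 1 with edgeR and 2 with limma on log2(FPKM + 1) and on log2(FPKM + 0.1), where *ins-27* was added. It stayed at 1 with each library left out, and no member was called higher (0) under any alternative. The replicate numbers did not pair the libraries, as the deviations of same-numbered libraries correlated between -0.045 and 0.013. With the number as a block the log2 fold change of *ins-31* was -5.83, and no call of a member changed. Of the other genes named, *ctl-2*, *spe-9* and *clec-123* lost their calls with the block (adjusted p = 0.0760, 0.0724 and 0.0797).

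For members that were not called, the log2 fold change turned its sign in some comparisons that left out one library: *ins-4* ranged from -0.49 to 0.014, *ins-6* from -0.10 to 0.15, *ins-7* from -0.079 to 0.21, *ins-28* from -0.27 to 0.35, *ins-30* from -0.20 to 0.17 and *ins-35* from -0.22 to 0.81. *ins-28* (-0.027 with edgeR) also lay above 0 in the 3 limma analyses and with the length correction and the replicate block together, and *ins-30* (0.0097) lay below 0 with the length correction, with or without the block. The number of detected members, 25, became 36 with at least 1 count in any library.

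For the related gene lists and the neighbours of *ins-31*, the same alternatives were chosen after seeing the data. In the receptor and intracellular list, the number of genes called higher fell to 0 with both limma analyses of FPKM and ranged from 0 to 1 with single libraries left out, and the number called lower was 2 with no filter on counts and 0 to 2 with single libraries left out. In the propeptide processing list, 0 to 1 genes were lower with single libraries left out. In the DAF-16 list, the number called higher was 0 with DESeq2, with both limma analyses of FPKM, with the replicate block and with the length correction, with or without the block, and 0 to 1 with single libraries left out.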
